A study of Mus musculus with 9 samples.

Results

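The genes described here are 58 mouse genes whose products build ribosomes in the nucleolus, listed by symbol and ordered by the step they serve. Of them, 3 act in transcription of ribosomal RNA (rRNA), 9 in guiding and making rRNA modifications, 24 in building the small ribosomal subunit, 18 in building the large subunit and 4 in several steps. All 58 were found among the 23992 gene symbols of the deposited tables, and all 58 passed the filter on low values that left 10702 genes for testing, Rrp12 and Grwd1 through the 6 libraries given a cytokine alone. Their messenger RNA was measured by RNA sequencing in regulatory T cells (Tregs), the Foxp3-expressing T cells that restrain immune responses.

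The cells were Foxp3GFP+ Tregs of the BALB/c strain from spleens, and every group carried the same transduced receptor, an orthogonal IL-2 receptor beta chain with a human EGFR tag (hEGFR-oIL-2Rβ). The cells were activated for 48 hours by beads against CD3 and CD28 in human IL-2 (1000 IU/mL). Tagged cells were then isolated magnetically and starved of IL-2 overnight. For the last 4 hours they received ortho IL-2 (2000000 IU/mL), WT (wild-type) IL-2 (20000 IU/mL) or no IL-2, with 3 libraries per group. Ortho IL-2 is a mutant cytokine paired with the transduced receptor, whereas WT IL-2 acts through the natural one, and the doses of the cytokines were not matched. Whether replicate libraries stem from separate animals or cultures is not stated. The p-values therefore reflect only how far these libraries spread, which may be technical. The growth label describes a co-culture assay, and this account of the culture follows the treatment label.

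Ribosome production starts in the nucleolus, where RNA polymerase I transcribes one long rRNA precursor. Small nucleolar RNAs (snoRNAs), packed with proteins into snoRNPs, guide methylation and pseudouridylation of this precursor, and the U3 snoRNP helps to fold and cut it. A large assembly called the processome then matures the small subunit, while a separate set of factors, helicases and GTPases among them, matures the large subunit before both are exported. Lymphocytes enlarge their nucleoli when they leave rest and grow, and the transcription factor MYC is a well known activator of these genes through the E-box motif CACGTG.

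The E-box served as a check of sequence in the gene starts. RefSeq windows of the GRCm38.p6 build, running 250 bases before to 50 bases after each annotated start, matched 52 of the 58 genes. The motif CACGTG, which reads the same on both strands, lay in the windows of 13 of these 52 genes (25.0%), against 12.3% of the 8428 tested genes with a window and 8.09% of all 27025 genes with one. Upstream of the start it lay in the large subunit methyltransferase gene Nop2, 60 bases before the start, in the RNA polymerase I initiation factor gene Rrn3, 48 and 215 bases before it, and in the small subunit gene Imp4, 121 bases before it. The stretches around these sites are shown 5′ to 3′ with the motif in capitals, because they place the same 6 letters at different distances from the starts of genes from 3 different steps.
Nop2, chr6:125131796-125131855, plus strand: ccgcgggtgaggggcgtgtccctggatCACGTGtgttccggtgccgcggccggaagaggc
Rrn3, chr16:13780624-13780683, plus strand: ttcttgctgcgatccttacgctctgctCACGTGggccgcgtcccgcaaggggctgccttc
Imp4, chr1:34439681-34439740, plus strand: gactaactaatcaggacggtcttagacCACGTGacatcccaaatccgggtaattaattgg
In the other 10 genes (Cirh1a, Grwd1, Ltv1, Mybbp1a, Nle1, Pes1, Pno1, Tsr1, Utp20 and Wdr43) the motif lay within the transcribed first 50 bases. A match is a description of letters in a window and says nothing of binding.

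Libraries held 16581624 to 58182835 reads in genes. Levels are given as RPKM (reads per kilobase of transcript, relative to library size) rescaled by TMM, a scaling that centres most genes, and differences as log2 fold changes of the counts from edgeR's quasi-likelihood test with Benjamini-Hochberg adjustment over all 10702 genes. Such levels are relative to all messenger RNA of a library, and in bulk RNA fewer cells of a type and less RNA per cell cannot be told apart. Of 6 Treg markers, Foxp3 stood at 213 to 263 RPKM with ortho IL-2, 195 to 270 with WT IL-2 and 134 to 138 without IL-2. The cells were Foxp3GFP+ by label, so the presence of Foxp3 is no separate check of it. Foxp3 and Il2ra were called higher with both cytokines (log2 0.78 and 0.70, and 1.99 and 2.04). Ctla4 (-0.53 and -0.51), Cd4 (-0.50 and -0.52) and Ikzf2 (-0.35 and -0.29) were called lower, and Cd3e was not called (-0.05 and -0.04). The 5 B cell markers together stood at 1.48 to 1.84, 1.15 to 1.83 and 1.66 to 2.04 RPKM in the same groups, and none of the 5 passed the filter. The 6 myeloid markers summed to 2.85 to 3.42, 3.0 to 3.22 and 3.37 to 4.10 RPKM, with Lyz2, Csf1r and S100a8 at 0 in at least 1 library of each group. The 1 myeloid marker that passed the filter, Itgam, was lower with both cytokines (log2 -0.62 and -0.60; adjusted p = 0.00418 and 0.00547, edgeR). CD8 and NK markers summed to 7.45 to 7.87, 7.24 to 7.95 and 6.45 to 7.22 RPKM, mostly Cd8b1, which was not called (log2 0.16 and 0.14). Erythroid and stromal markers summed to 65.7 to 68.9, 66.9 to 68.2 and 83.9 to 88.2 RPKM. Nearly all of it was Pecam1, which T cells also express. Pecam1 was lower with both cytokines (log2 -0.37 and -0.37; adjusted p = 4.09e-05 and 4.43e-05, edgeR). The part of these marker differences in the results was not tested. The deposited RPKM values divide by a whole number per library, taken here as its total reads, which the sources used do not state. By that reading, reads outside the transcripts used made up 29.4% ± 3.64 with ortho IL-2, 31.7% ± 2.96 with WT IL-2 and 40.5% ± 2.43 without IL-2 (SD, n = 3 each), a split of the 6 stimulated from the 3 unstimulated libraries with p = 0.0238 in a two-sided exact permutation test. This share moved with the comparison of either cytokine with no IL-2, and its part in the results was not tested beyond the fit that takes it as a covariate, given with the first counts.

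Both cytokines raised most of these 58 ribosome biogenesis genes within 4 hours, from the modification machinery through both subunits. With ortho IL-2, 46 of the 58 genes were higher than without IL-2, 1 was lower and 11 were not called. Across all tested genes 28.5% were called higher and 27.4% lower in that comparison. With WT IL-2, 49 of the 58 were higher, 1 was lower and 8 were not called, against 25.0% of all tested genes called higher and 22.9% called lower. The median log2 fold change of the 58 genes was 0.62 with either cytokine, a 1.54-fold level, and that of all tested genes was 0.01 in both comparisons. A rise of at least 2-fold was called for 11 genes with ortho IL-2 and 12 with WT IL-2, where 3.83% and 3.49% of all tested genes rose that far. Rrp12 and Grwd1, which passed the filter through the libraries given a cytokine alone, are part of each of these counts of higher genes.

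The groups separated library by library. The median level of the 58 genes was 15.5, 14.8 and 15.7 RPKM with ortho IL-2, 15.3, 15.0 and 15.3 with WT IL-2, and 9.62, 9.99 and 9.24 without IL-2. Every ortho IL-2 library stood above every library without IL-2 for 48 of the 58 genes, against 33.9% of all tested genes, and every ortho IL-2 library stood below for 2 (Ddx52 and, by less than 0.1 RPKM, Ncl), against 32.2% of all tested genes. For WT IL-2 the libraries stood entirely above for 49 genes, against 30.3% of all tested genes, and entirely below for 1 (Ddx52), against 28.5%. Of all 58 genes, 46 were called higher in both comparisons, which share the libraries without IL-2. The share of all tested genes called higher in both is not given here. It can be at most 25.0%, the share called higher with WT IL-2.

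**Figure D1:**
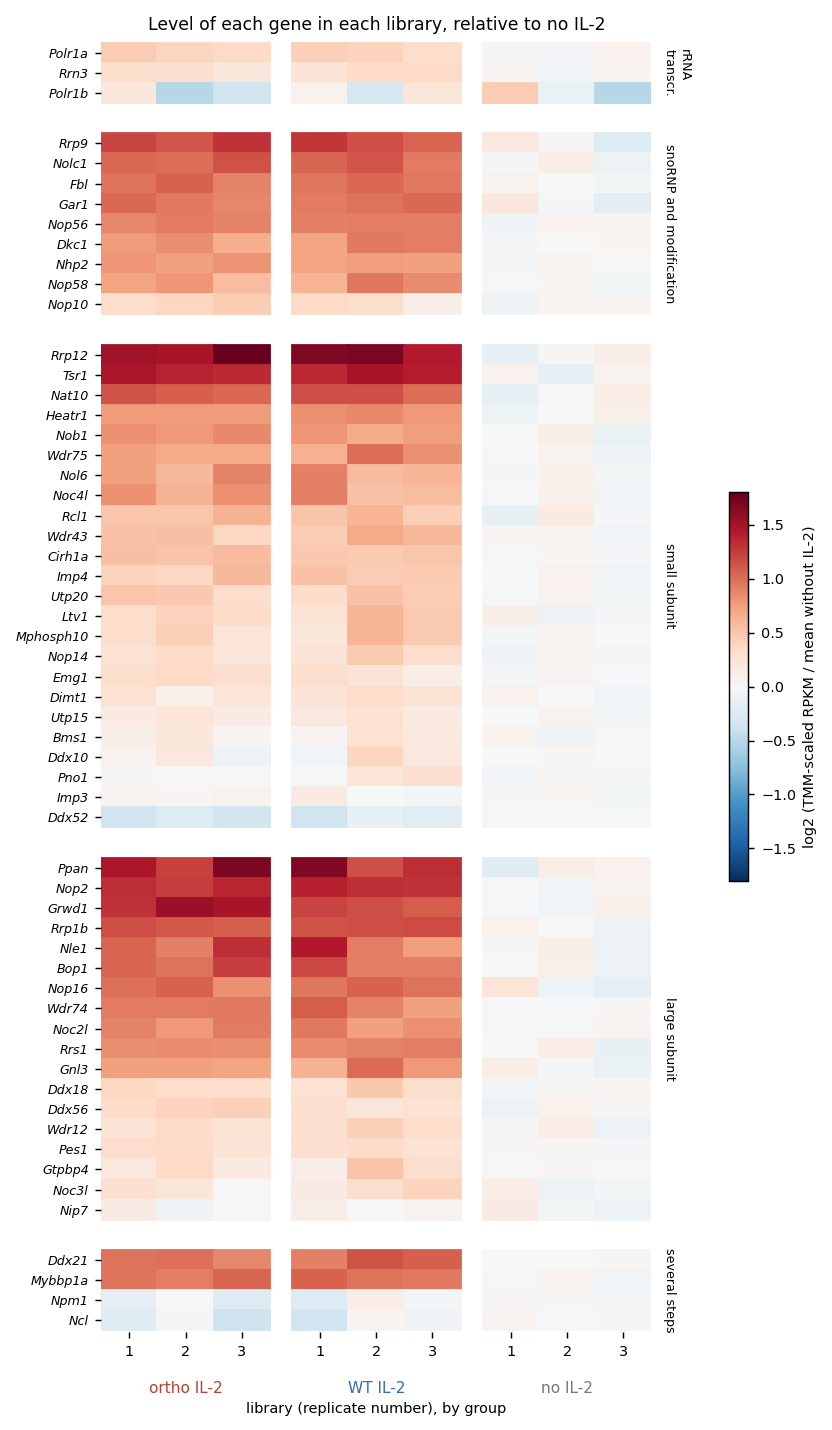
Level of each of the 58 genes (rows, by step) in each of the 9 libraries (columns, by group), as log2 of TMM-scaled RPKM over the mean of the 3 libraries without IL-2. Most rows are red in all 6 stimulated libraries, while Npm1, Ncl, Imp3, Pno1, Nip7 and Ddx52 are pale or blue.

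Some settings changed these counts. When the share of reads outside genes was a covariate, 31 genes were called higher with ortho IL-2 and 33 with WT IL-2, and none was called lower. The shares of all genes called higher were then 8.65% and 11.4%, those called lower 6.05% and 8.54%, and the median log2 fold changes of the 58 genes 0.62 and 0.65. The genes that lost their call in both comparisons with the covariate were Nop10, Utp15, Nop14, Noc4l, Nol6, Imp4, Mphosph10, Rcl1, Ltv1, Emg1, Ddx52, Wdr12, Ddx18, Ddx56 and Nle1. Polr1a and Pes1 lost theirs with ortho IL-2, and Dimt1 and Gtpbp4 with WT IL-2. Among them the log2 fold changes became 0.12 and 0.05 for Nop10, 0.23 and 0.28 for Rcl1, 0.22 and 0.14 for Emg1, 0.17 and 0.27 for Wdr12, 0.20 and 0.28 for Nop14, 0.28 and 0.18 for Ddx56 and 0.66 and 0.72 for Nle1. With the authors' RPKM divisor in place of TMM, the median log2 fold change of all genes was 0.29 with ortho IL-2 and 0.22 with WT IL-2. With TMM it was 0.01 in both. With the divisor, 54 and 53 of the 58 genes were called higher and 0 lower. Of all genes 53.3% and 43.3% were then higher and 8.84% and 8.36% lower.

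In rRNA transcription, Polr1a and Rrn3 rose moderately and Polr1b was not called. Polr1a encodes a catalytic core subunit of RNA polymerase I, and its levels were 7.91, 7.64 and 7.43 with ortho, 7.79, 7.66 and 7.16 with WT and 5.62, 5.61 and 6.1 without IL-2. Every stimulated library lay above every unstimulated one, and the log2 fold change was 0.41 ± 0.06 with ortho and 0.39 ± 0.06 with WT IL-2 (SE; adjusted p = 0.000224 and 0.000356, edgeR). Rrn3 encodes the factor that brings the polymerase to the rRNA gene promoter, and stood at 17.5, 17.4 and 16.3 with ortho, 16.7, 18 and 18.1 with WT and 14.4, 13.5 and 14.4 without IL-2. It rose 1.21-fold with ortho and 1.24-fold with WT IL-2 (log2 0.27 and 0.32; adjusted p = 0.00209 and 0.000899, edgeR), with no overlap between stimulated and unstimulated libraries. Polr1b, which encodes the partner core subunit, spread widely at 6.03, 3.64 and 4.06 with ortho, 5.5, 4.18 and 6.12 with WT and 7.19, 4.81 and 3.67 without IL-2. Its groups overlapped fully, and its 95% intervals ran from -0.77 to 0.38 log2 with ortho IL-2 and from -0.57 to 0.57 with WT IL-2. Leaving out the first library without IL-2 turned the sign of its ortho IL-2 value, to 0.11.

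All 9 genes of snoRNPs and rRNA modification rose with both cytokines, with median log2 fold changes of 0.90 for ortho IL-2 and 0.92 for WT IL-2. Of all tested genes 28.5% were called higher with ortho IL-2 and 25.0% with WT IL-2. Rrp9 encodes a protein specific to the U3 snoRNP and had the lowest level of the 9 without IL-2, at 8, 7.51 and 8.43 with ortho, 8.35, 7.68 and 7.11 with WT and 3.91, 3.47 and 2.9 without IL-2 RPKM. It rose 2.31-fold with ortho and 2.23-fold with WT IL-2 (adjusted p = 1.8e-05 and 2.55e-05, edgeR), the largest change of this step. Nolc1 encodes a chaperone that escorts snoRNPs between the nucleolus and Cajal bodies, and its levels were 16.3, 16 and 17.7 with ortho, 16.5, 17.5 and 15.3 with WT and 7.77, 8.68 and 7.51 without IL-2. Stimulated libraries all lay well above the unstimulated ones, a log2 fold change of 1.06 ± 0.07 with ortho and 1.04 ± 0.07 with WT IL-2 (adjusted p = 2.04e-06 and 2.39e-06, edgeR).

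The proteins of box C/D snoRNPs, which carry out methylation, rose together. Fibrillarin, the methyltransferase encoded by Fbl, stood at 55.5, 58.9 and 52.4 with ortho, 55, 58 and 54.6 with WT and 29.6, 28.2 and 27.3 without IL-2 RPKM. Its groups with and without IL-2 lay far apart and the spread within each was small, giving 1.96-fold with ortho and 1.97-fold with WT IL-2 (adjusted p = 7.06e-07 and 6.51e-07, edgeR). The core protein gene Nop56 stood at 51.7, 53.5 and 52.4 with ortho, 52.9, 53.2 and 53.1 with WT and 26.7, 29 and 28.7 without IL-2, a log2 fold change of 0.90 and 0.92 with ortho and WT IL-2. Nop58, its partner, had the highest level of the step without IL-2 and stood at 56.6, 59.6 and 50.5 with ortho, 52.7, 67 and 62.1 with WT and 34.5, 35.2 and 33.4 without IL-2, a log2 fold change of 0.69 and 0.82. No stimulated library of either gene came near the unstimulated range.

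The box H/ACA snoRNP, which carries out pseudouridylation, has 4 core proteins, and they changed by different amounts. Dkc1, the pseudouridine synthase dyskerin, stood at 21.7, 22.6 and 20 with ortho, 20.7, 24.5 and 24 with WT and 12.4, 12.6 and 13 without IL-2, and its log2 fold change was 0.76 ± 0.07 with ortho and 0.86 ± 0.07 with WT IL-2. Gar1 stood at 15.8, 14.9 and 14.2 with ortho, 14.7, 15.1 and 15.8 with WT and 8.84, 7.51 and 6.74 without IL-2 (log2 0.95 and 0.97) and Nhp2 at 16.2, 15.7 and 16.4 with ortho, 15.3, 15.8 and 15.6 with WT and 9.18, 9.69 and 9.26 without IL-2 (log2 0.78 and 0.73). Nop10, the smallest core protein, stood at 27.9, 29 and 30.4 with ortho, 28.4, 27.5 and 24.1 with WT and 21, 22.6 and 22.7 without IL-2, and changed least of the 9 genes, with log2 fold changes of 0.40 ± 0.08 with ortho and 0.27 ± 0.08 with WT IL-2 (adjusted p = 0.00225 and 0.0185, edgeR). All stimulated libraries of Nop10 still lay above the unstimulated ones, but with the covariate for reads outside genes neither call remained (adjusted p = 0.649 and 0.819, edgeR). The call with WT IL-2 was also lost without WT IL-2 replicate 1 (adjusted p = 0.054, edgeR), without WT IL-2 replicate 2 (0.0538) or without the first unstimulated library (0.0754).

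**Figure D2:**
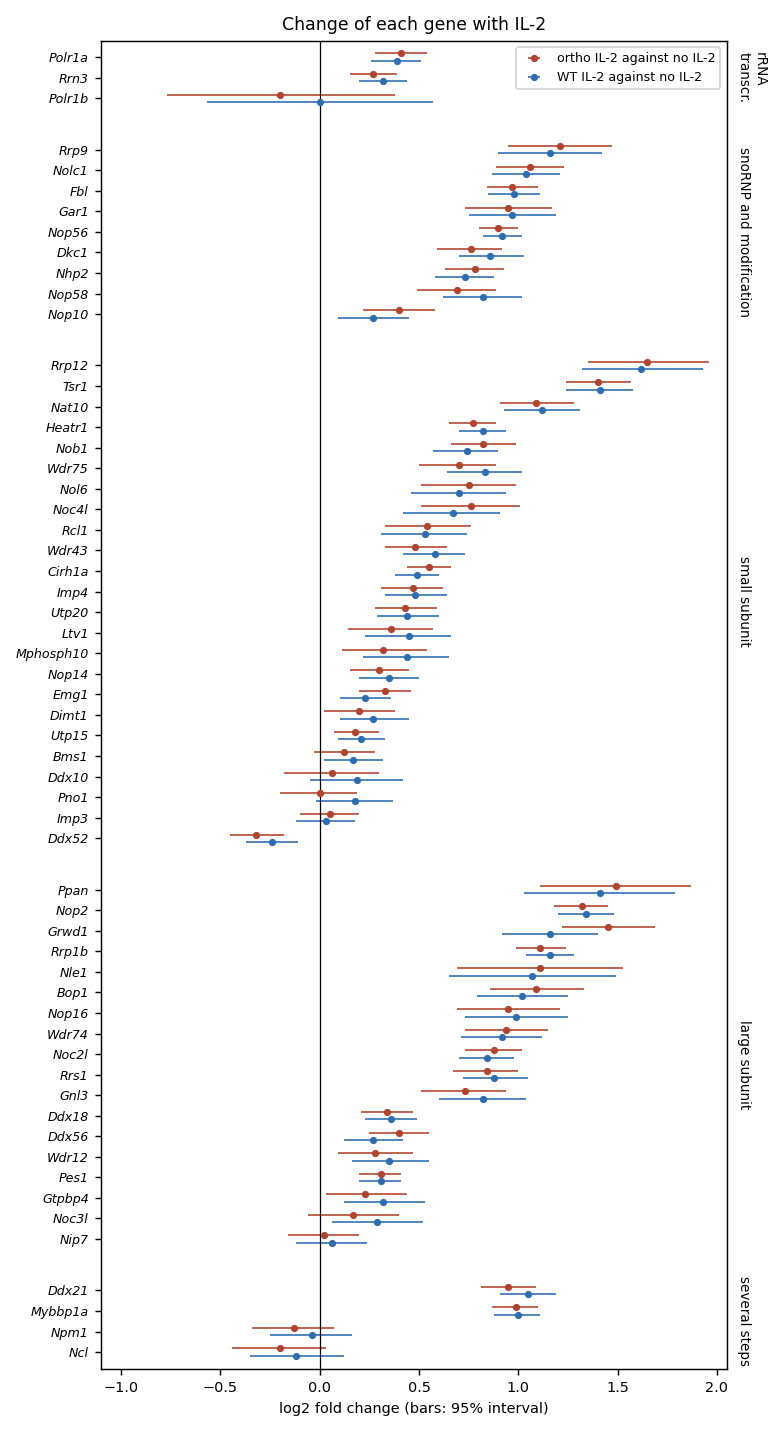
Log2 fold change of each gene against no IL-2, with its 95% interval from the edgeR fit, for ortho IL-2 (red) and WT IL-2 (blue), ordered by step. Rrp12, Ppan, Grwd1, Tsr1 and Nop2 lie furthest to the right, and Ddx52 is the only gene whose intervals both lie below 0.

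Small subunit genes covered the whole range of the 58. Of 24, ortho IL-2 raised 18 and lowered 1, and WT IL-2 raised 19 and lowered 1, with median log2 fold changes of 0.45 and 0.47. Of all tested genes 28.5% were called higher and 27.4% lower with ortho IL-2, and 25.0% and 22.9% with WT IL-2. With the covariate for reads outside genes 9 of the 24 were higher in each comparison and none was lower, with medians of 0.36 and 0.45. The shares of all tested genes were then 8.65% and 11.4% higher and 6.05% and 8.54% lower. Rrp12, which encodes a repeat protein needed to export pre-ribosomes, had the lowest level of the step without IL-2. It had the largest change of all 58 genes in the fit without offsets or covariate. It passed the filter through the 6 libraries given a cytokine alone, the groups where it was high, so its calls are no support for a change. Its levels were 2.82, 2.75 and 3.56 with ortho, 3.14, 3.2 and 2.63 with WT and 0.883, 0.992 and 1.06 without IL-2 RPKM. It rose 3.14-fold with ortho and 3.08-fold with WT IL-2 (log2 1.65 and 1.62, adjusted p = 6.22e-06 and 7.4e-06, edgeR), and with GC offsets, which remove each library's own trend with base composition, the values were 1.41 and 1.45. With the covariate for reads outside genes they were 1.11 and 1.19. Rrp12 was then no longer the largest, as Tsr1 had 1.53 and 1.51 with the covariate. With GC offsets Tsr1 had 1.48 and 1.44, above Rrp12 with ortho IL-2 but not with WT IL-2. Tsr1, a GTPase-like protein of late pre-small-subunit particles, stood at 13.9, 13.2 and 12.8 with ortho, 12.7, 14 and 13.4 with WT and 5.31, 4.51 and 5.28 without IL-2. That is 2.65-fold with ortho and 2.66-fold with WT IL-2 (adjusted p = 3.15e-07 and 2.99e-07, edgeR), with every stimulated library far above every unstimulated one. Nat10, which acetylates small subunit rRNA, stood at 7.03, 6.74 and 6.56 with ortho, 7.1, 7.13 and 6.41 with WT and 2.86, 3.21 and 3.49 without IL-2, and its log2 fold change was 1.09 ± 0.08 with ortho and 1.12 ± 0.08 with WT IL-2.

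Subunits of the UTPA complex, which binds the rRNA precursor first, rose unequally. Heatr1, its large repeat protein, stood at 11.7, 11.7 and 11.7 with ortho, 12.1, 12.5 and 11.8 with WT and 6.42, 6.82 and 7.37 without IL-2, a log2 fold change of 0.77 ± 0.05 with ortho and 0.82 ± 0.05 with WT IL-2. Wdr75 and Wdr43 had log2 fold changes of 0.70 and 0.83 and of 0.48 and 0.58 with ortho and WT IL-2. Cirh1a, whose human counterpart is mutated in a childhood cirrhosis, stood at 15.4, 15.2 and 15.8 with ortho, 14.9, 14.7 and 15 with WT and 10.6, 10.9 and 10.3 without IL-2 (log2 0.55 and 0.49). Utp15 changed least of these, at 10.7, 11.2 and 10.6 with ortho, 10.9, 11.5 and 10.7 with WT and 9.47, 9.94 and 9.22 without IL-2, with log2 fold changes of 0.18 ± 0.05 with ortho and 0.21 ± 0.05 with WT IL-2 (adjusted p = 0.0146 and 0.00911, edgeR). Its call with ortho IL-2 was lost without the third unstimulated library (log2 0.16, adjusted p = 0.0529, edgeR).

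Among other processome genes, Nol6 of the UTPC complex had log2 fold changes of 0.75 and 0.70 with ortho and WT IL-2, and the scaffold gene Utp20 had 0.43 and 0.44. Noc4l and Nop14, which act as a pair, had 0.76 and 0.67 and 0.30 and 0.35. Emg1 encodes the methyltransferase that modifies a pseudouridine of small subunit rRNA and had the highest level of the step without IL-2. Its levels were 75, 76.7 and 74.1 with ortho, 74.9, 71 and 64.9 with WT and 58.4, 62.1 and 59.4 without IL-2, all stimulated libraries above all others, and its log2 fold change was 0.33 ± 0.06 with ortho and 0.23 ± 0.06 with WT IL-2 (adjusted p = 0.001 and 0.00844, edgeR). Rcl1, the partner of the GTPase Bms1, had log2 fold changes of 0.54 and 0.53. Bms1 itself stood at 31, 32.7 and 29.2 with ortho, 29.4, 34.3 and 32.1 with WT and 29.8, 26.8 and 28.6 without IL-2, with partly overlapping groups, and was called in neither comparison (log2 0.12 and 0.17; adjusted p = 0.144 and 0.0625, edgeR). Without WT IL-2 replicate 1, however, Bms1 passed with WT IL-2 (log2 0.23, adjusted p = 0.0147, edgeR), and with GC offsets it passed in both (0.16 and 0.18).

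The MPP10 complex, which ties U3 to the precursor, split. Imp4 stood at 15, 14.6 and 16.8 with ortho, 16.2, 15.3 and 15.5 with WT and 11.1, 11.8 and 10.7 without IL-2, a log2 fold change of 0.47 ± 0.07 with ortho and 0.48 ± 0.07 with WT IL-2. Mphosph10, its scaffold, had log2 fold changes of 0.32 and 0.44 (adjusted p = 0.0172 and 0.00416, edgeR), and lost the ortho IL-2 call without ortho IL-2 replicate 2 (adjusted p = 0.0537, edgeR) or without the first unstimulated library (0.0623). Imp3 stood at 27, 26.7 and 27.4 with ortho, 28.8, 26 and 25.3 with WT and 26.4, 26.8 and 25.2 without IL-2, with overlapping groups, and was called in neither comparison (log2 0.05 and 0.03). With GC offsets Imp3 was called lower in both, at -0.19 and -0.14.

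Late small subunit factors also split. Nob1, the endonuclease that makes the final cut of small subunit rRNA, stood at 16.3, 15.9 and 16.8 with ortho, 16, 14.7 and 15.6 with WT and 9.2, 10 and 8.47 without IL-2, and rose 1.77-fold with ortho and 1.67-fold with WT IL-2 (adjusted p = 1.18e-05 and 2.59e-05, edgeR). Pno1, which sits beside Nob1 on the same particle, stood at 11.5, 11.9 and 11.8 with ortho, 11.6, 13.9 and 14.5 with WT and 11.3, 12 and 12 without IL-2. Its ortho IL-2 libraries lay inside the unstimulated range and its log2 fold changes were 0.00 ± 0.09 with ortho and 0.18 ± 0.09 with WT IL-2. Neither value of Pno1 was called, but the WT IL-2 value passed without WT IL-2 replicate 1 (log2 0.27, adjusted p = 0.00905, edgeR) and with GC offsets (0.28, adjusted p = 0.00569, edgeR). Ltv1, which leaves the particle before it matures, had log2 fold changes of 0.36 and 0.45. Dimt1, which dimethylates adenines near the end of small subunit rRNA, stood at 5.47, 4.83 and 5.3 with ortho, 5.36, 5.67 and 5.41 with WT and 4.77, 4.49 and 4.33 without IL-2 and was called with WT IL-2 alone (log2 0.20 and 0.27; adjusted p = 0.052 and 0.0164, edgeR). The difference between the cytokines was not called for Dimt1 (log2 -0.07), and its WT IL-2 call was lost without WT IL-2 replicate 2 (adjusted p = 0.0501, edgeR) or the third unstimulated library (0.0566), while its ortho IL-2 value passed without ortho IL-2 replicate 2 (0.0323) and with GC offsets (log2 0.52, adjusted p = 0.00173, edgeR).

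Of 2 DEAD-box helicases of the small subunit, Ddx52 was the one gene of the 58 that fell. It stood at 29.8, 32.2 and 30 with ortho, 29.6, 34.3 and 33 with WT and 38.4, 38.2 and 37.7 without IL-2 RPKM, every stimulated library below every unstimulated one. The log2 fold change was -0.32 ± 0.06 with ortho and -0.24 ± 0.06 with WT IL-2 (adjusted p = 0.00152 and 0.00802, edgeR), and with the RPKM divisor, which raises all genes, it was -0.04 and -0.02 and was not called. Ddx10 overlapped between groups at 23.2, 25.1 and 20.6 with ortho, 21.1, 28.9 and 25.2 with WT and 21.8, 22.4 and 21.8 without IL-2 and was not called (log2 0.06 and 0.19; adjusted p = 0.663 and 0.172, edgeR), but passed with WT IL-2 when WT IL-2 replicate 1 was left out (log2 0.30, adjusted p = 0.0156, edgeR) and in both comparisons with GC offsets (0.22 and 0.28).

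Large subunit genes rose with median log2 fold changes of 0.86 with either cytokine: 15 of 18 were higher with ortho IL-2, 17 of 18 with WT IL-2, and none was lower. Of all tested genes 28.5% were called higher and 27.4% lower with ortho IL-2, and 25.0% and 22.9% with WT IL-2. Ppan, whose yeast counterpart matures the large subunit precursor, stood at 9.69, 8.27 and 11.4 with ortho, 11.2, 7.81 and 8.8 with WT and 3.01, 3.82 and 3.7 without IL-2 RPKM. Every stimulated library exceeded every unstimulated one by a wide margin, and Ppan rose 2.82-fold with ortho and 2.66-fold with WT IL-2 (adjusted p = 5.88e-05 and 8.95e-05, edgeR). Nop2, the cytosine methyltransferase with the E-box upstream of its start, stood at 15.6, 14.8 and 16.1 with ortho, 16.5, 15.5 and 15.4 with WT and 6.3, 5.95 and 6.48 without IL-2. Its rise was 2.49-fold with ortho and 2.53-fold with WT IL-2 (log2 1.32 and 1.34; adjusted p = 1.34e-07 and 1.18e-07, edgeR), with little spread inside any group. Grwd1, whose yeast counterpart is a chaperone of a ribosomal protein, had the lowest level of the step without IL-2 and stood at 3.68, 4.39 and 4.15 with ortho, 3.45, 3.34 and 3.16 with WT and 1.47, 1.42 and 1.58 without IL-2. Its log2 fold change was 1.45 ± 0.11 with ortho and 1.16 ± 0.11 with WT IL-2, on counts that fell as low as 49 reads in a library. Grwd1 passed the filter through the 6 libraries given a cytokine alone, the groups where it was high, so its calls against no IL-2 are no support for a change.

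Rrp1b and Nop16 encode nucleolar proteins of early large subunit particles, with log2 fold changes of 1.11 ± 0.05 with ortho and 1.16 ± 0.05 with WT IL-2 for Rrp1b and 0.95 ± 0.12 with ortho and 0.99 ± 0.12 with WT IL-2 for Nop16. Nle1, which helps the remodelling ATPase of the pre-large subunit, stood at 4.72, 4.28 and 5.7 with ortho, 6.17, 4.33 and 3.85 with WT and 2.22, 2.47 and 2.15 without IL-2 and had 1.11 and 1.07; 62 reads were its lowest count. Wdr74, which acts on early large subunit particles, had 0.94 and 0.92. Rrs1, which helps to dock the smallest rRNA, had 0.84 and 0.88, and nucleostemin, the GTPase encoded by Gnl3, had 0.73 and 0.82. Ddx18, a helicase, had the highest level of the step without IL-2 and stood at 35.8, 34.9 and 34.8 with ortho, 33.6, 38.7 and 34.6 with WT and 26.7, 28.1 and 28.4 without IL-2, a smaller change of 0.34 and 0.36. Ddx56, another helicase, stood at 7.05, 7.38 and 7.47 with ortho, 6.87, 6.45 and 6.72 with WT and 5.18, 5.83 and 5.64 without IL-2, with log2 fold changes of 0.40 and 0.27, and its WT IL-2 call was lost with GC offsets (log2 0.12).

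In the PeBoW complex, Bop1 rose more than its partners. Bop1 stood at 12.8, 12.2 and 14.7 with ortho, 14.2, 11.8 and 11.8 with WT and 6.15, 6.69 and 5.78 without IL-2, 2.13-fold with ortho and 2.03-fold with WT IL-2 (adjusted p = 1.64e-05 and 2.78e-05, edgeR). Pes1 stood at 23.8, 24 and 22.4 with ortho, 23.2, 24.1 and 22.8 with WT and 19.1, 19.1 and 18.5 without IL-2, a log2 fold change of 0.31 ± 0.05 with ortho and 0.31 ± 0.05 with WT IL-2. Wdr12, the third subunit, stood at 3.86, 4.12 and 3.91 with ortho, 4.01, 4.39 and 4.1 with WT and 3.16, 3.58 and 3.01 without IL-2, a log2 fold change of 0.28 ± 0.09 with ortho and 0.35 ± 0.09 with WT IL-2 (adjusted p = 0.02 and 0.00735, edgeR). All stimulated libraries of the 3 genes lay above the unstimulated ones, but the ortho IL-2 call of Wdr12 was lost without ortho IL-2 replicate 2 (adjusted p = 0.0544, edgeR), the first unstimulated library (0.0699) or the third (0.0676).

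Noc2l and Noc3l, which bind each other on early large subunit particles, differed likewise. Noc2l stood at 29, 26.9 and 29.8 with ortho, 30, 26 and 27.7 with WT and 15.4, 15.3 and 16.1 without IL-2, a log2 fold change of 0.88 ± 0.06 with ortho and 0.84 ± 0.06 with WT IL-2. Noc3l stood at 9.84, 9.3 and 7.86 with ortho, 8.83, 9.94 and 10.6 with WT and 8.77, 7.48 and 7.67 without IL-2, with the ortho IL-2 libraries overlapping the unstimulated ones, and was called with WT IL-2 alone (log2 0.17 and 0.29; adjusted p = 0.187 and 0.0384, edgeR). The difference between the cytokines was not called for Noc3l (log2 -0.13). The WT IL-2 call was lost when WT IL-2 replicate 2 (adjusted p = 0.0824, edgeR) or 3 (0.121) or unstimulated replicate 2 (0.127) or 3 (0.108) was left out, and also with quantile scaling (0.0996, limma) and with the replicate block (0.0607). The ortho IL-2 value of Noc3l passed without ortho IL-2 replicate 3 (log2 0.26, adjusted p = 0.0498, edgeR), with GC offsets (0.31, adjusted p = 0.00281) and with the covariate (0.60, adjusted p = 0.0234). Gtpbp4, a GTPase of the pre-large subunit, stood at 30.4, 34.1 and 29.8 with ortho, 28.9, 38.1 and 33.4 with WT and 26.7, 27.1 and 26.4 without IL-2 and narrowly missed the threshold with ortho IL-2 (log2 0.23 and 0.32; adjusted p = 0.0543 and 0.0154, edgeR), although no stimulated library fell into the unstimulated range. Its ortho IL-2 value passed with GC offsets (log2 0.46, adjusted p = 4.93e-05, edgeR), with the replicate block (adjusted p = 0.0298) and with only the compared groups in the fit (adjusted p = 0.00838). Without the first unstimulated library its WT IL-2 call was lost (adjusted p = 0.0505, edgeR), as it was with the covariate (adjusted p = 0.299). Nip7, which acts with early large subunit factors, stood at 13.8, 11.9 and 12.5 with ortho, 13.6, 12.4 and 13.1 with WT and 13.9, 12.1 and 11.6 without IL-2, with fully overlapping groups (log2 0.02 and 0.06; adjusted p = 0.84 and 0.596, edgeR).

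The 4 genes of several steps parted into pairs. Ddx21, a helicase that links rRNA transcription with processing, stood at 47.1, 47.5 and 44 with ortho, 44.8, 53 and 50.5 with WT and 23.7, 23.8 and 24.2 without IL-2, and rose 1.93-fold with ortho and 2.07-fold with WT IL-2 (adjusted p = 1.28e-06 and 6.57e-07, edgeR). Mybbp1a, a nucleolar partner of RNA polymerase I, stood at 32, 30.8 and 33.5 with ortho, 33.8, 32 and 31.4 with WT and 16.2, 16.8 and 15.5 without IL-2, with log2 fold changes of 0.99 ± 0.05 with ortho and 1.00 ± 0.05 with WT IL-2 and no overlap with the unstimulated libraries. Nucleophosmin (Npm1) and nucleolin (Ncl), the abundant chaperone and RNA-binding proteins of the nucleolus, were not called higher. Npm1 had the highest level of the step without IL-2, at 460.4, 520.2 and 441.6 with ortho, 437.9, 571.5 and 503.7 with WT and 527, 526.6 and 504.8 without IL-2 RPKM, with overlapping groups and log2 fold changes of -0.13 ± 0.09 with ortho and -0.04 ± 0.09 with WT IL-2. Ncl stood at 121.3, 137.3 and 108.6 with ortho, 110.1, 146 and 134.2 with WT and 146.6, 139 and 137.3 without IL-2, with the highest ortho IL-2 library level with the lowest unstimulated one, and was not called (log2 -0.20 ± 0.11 with ortho and -0.12 ± 0.11 with WT IL-2; adjusted p = 0.128 and 0.396, edgeR). Ncl passed as lower with ortho IL-2 when ortho IL-2 replicate 2 was left out (log2 -0.29, adjusted p = 0.0451, edgeR), and with the RPKM divisor the signs of both genes turned (0.07 and 0.10 for Ncl, 0.14 and 0.17 for Npm1). These 2 genes held a large part of all reads of the 58, so sums are given with and without them. Over all 58 genes the sum was 4452, 4678 and 4245 CPM (counts scaled to library size) with ortho IL-2, 4282, 4983 and 4654 with WT IL-2, and 3879, 3821 and 3731 without IL-2. Without Ncl and Npm1 it was 2796, 2804 and 2720 with ortho IL-2, 2750, 2965 and 2830 with WT IL-2, and 1919, 1925 and 1880 without IL-2.

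Differences between ortho IL-2 and WT IL-2 were small beside those of either from no IL-2. None of the 58 was called different between the cytokines by edgeR or by DESeq2, and 0.0% of all tested genes were. At an unadjusted p under 0.05 edgeR gave 1 of the 58, against 1.39% of all tested genes. The median log2 difference was -0.02 and the range -0.20 to 0.29. For 56 of the 58 genes the 95% interval lay within 0.5 log2 units of no difference, Polr1b and Grwd1 being the exceptions. The libraries of the 2 groups did not overlap for 4 of the 58 genes, against 4.65% of all tested genes. Grwd1 was the gene with an unadjusted p under 0.05: it stood at 3.68, 4.39 and 4.15 with ortho IL-2, against 3.45, 3.34 and 3.16 with WT IL-2 (log2 0.29, edgeR unadjusted p = 0.013).

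The next smallest p-values belonged to Pno1, Nop10, Ddx56, Emg1 and Ddx21. Pno1 stood at 11.5, 11.9 and 11.8 with ortho IL-2, against 11.6, 13.9 and 14.5 with WT IL-2, a log2 difference of -0.18. Nop10, Ddx56 and Emg1 stood higher with ortho IL-2 by 0.13, 0.13 and 0.10, and Ddx21 differed by -0.10. None of these 5 had an unadjusted p under 0.05. WT IL-2 replicate 1 stood apart from the others of its group: without it the ortho and WT libraries did not overlap for 26 of the 58 genes (44.8%), 10 above and 16 below, and for 43.6% of all tested genes, so that the 58 followed the whole transcriptome. Its chi-square of read counts per gene was 32.44 and 26.45 against the others, which had 7.395 between them. Ortho IL-2 replicate 3 also stood apart, with 21.58 and 21.55 against 6.221. Without ortho IL-2 replicate 3 the libraries did not overlap for 10.3% of the 58 and 9.49% of all tested genes.

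**Figure D3:**
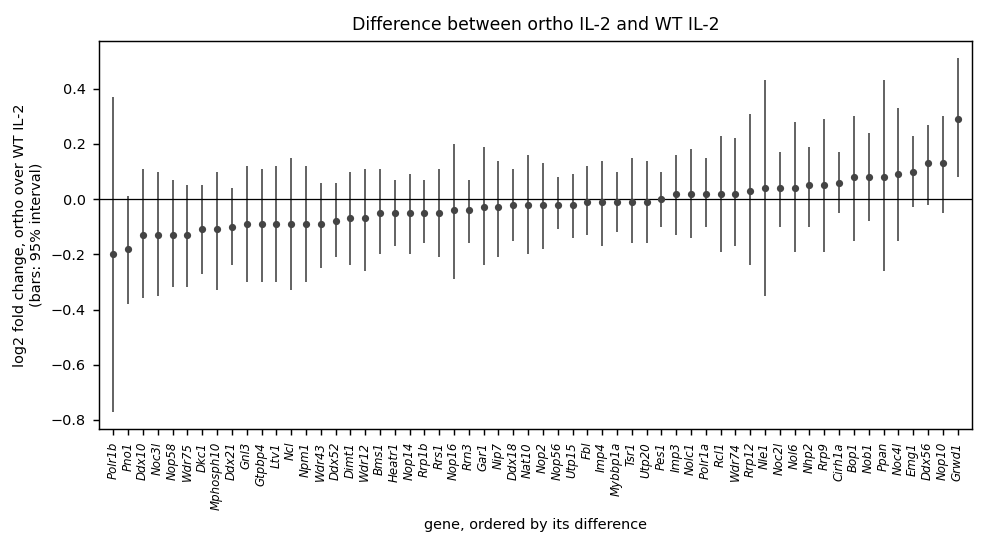
Log2 fold change of ortho IL-2 over WT IL-2 for each of the 58 genes, with its 95% interval from the edgeR fit, in order of size. Points run from -0.20 for Polr1b to 0.29 for Grwd1, and 56 intervals stay within 0.5 of no difference.

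Since several genes of one complex moved by different amounts, their levels were set against each other within each library for 11 pairs, chosen after their values were seen. A two-sided exact permutation test of 3 against 3 libraries cannot go below p = 0.1, and 10 of the 11 pairs reached that value in both comparisons; these are descriptions of pairs picked for their difference. Bop1 over Pes1 was 0.537, 0.509 and 0.656 with ortho, 0.614, 0.488 and 0.517 with WT and 0.322, 0.35 and 0.313 without IL-2, a log2 difference of 0.78 with ortho IL-2 and 0.71 with WT IL-2, or 0.48 and 0.51 with GC offsets. Noc2l over Noc3l was 2.95, 2.89 and 3.8 with ortho, 3.39, 2.62 and 2.61 with WT and 1.75, 2.04 and 2.1 without IL-2. The difference of the Noc pair was 0.70 and 0.54, or 0.32 and 0.29 with GC offsets. Heatr1 over Utp15 was 1.09, 1.04 and 1.1 with ortho, 1.11, 1.08 and 1.1 with WT and 0.679, 0.686 and 0.799 without IL-2, differences of 0.58 and 0.61 that stood at 0.55 and 0.59 with GC offsets.

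Imp4 over Imp3 was 0.555, 0.546 and 0.614 with ortho, 0.562, 0.589 and 0.611 with WT and 0.42, 0.439 and 0.426 without IL-2, and its differences of 0.42 and 0.46 became 0.71 and 0.65 with GC offsets. Nob1 over Pno1 was 1.41, 1.34 and 1.43 with ortho, 1.38, 1.06 and 1.08 with WT and 0.815, 0.833 and 0.707 without IL-2. In both pairs the stimulated ratios all lay above the unstimulated ones, as did those of Dkc1 over Nop10, at 0.778, 0.781 and 0.657 with ortho, 0.729, 0.89 and 0.998 with WT and 0.593, 0.558 and 0.574 without IL-2. Fbl over Nop58 rose by 0.28 and 0.17 but changed sign with GC offsets, to -0.21 and -0.17, so no order between these 2 methylation proteins held under both settings. Polr1a over Polr1b was the pair that did not separate (exact permutation p = 0.2 with ortho IL-2 and 0.4 with WT IL-2). With GC offsets 7 of the 11 pairs were at the smallest value of the exact permutation test (p = 0.1) in both comparisons.

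**Figure D4:**
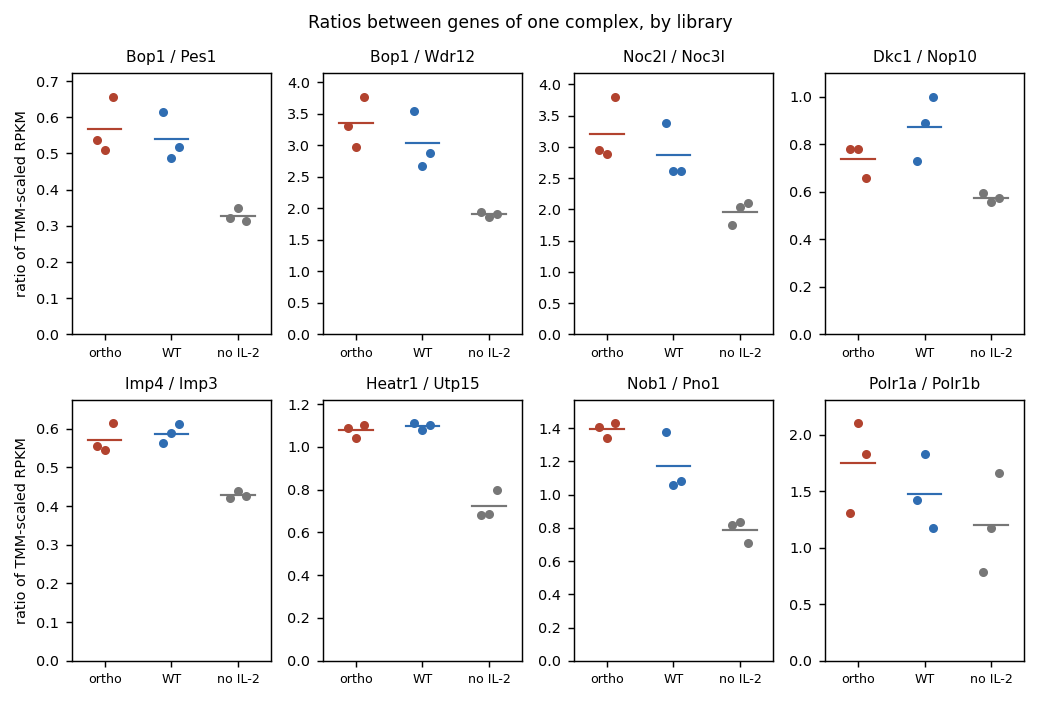
Ratio of the TMM-scaled RPKM of 2 genes of one complex in each library (points) with the group mean (line), for 8 of the 11 pairs, with ortho IL-2, WT IL-2 and no IL-2 from left to right. In every panel but Polr1a over Polr1b the stimulated points lie above the unstimulated ones.

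Base composition moved with the size of the change. Across the 58 genes Spearman's rho between log2 fold change and the GC content of the transcript was 0.655 with ortho IL-2 and 0.552 with WT IL-2, and across 10667 tested genes 0.436 and 0.317. These are descriptions over genes that share the same 9 libraries, whose own trends of level with GC ran from 0.0127 to 0.283 log2 units per 10 percentage points with ortho IL-2, from -0.0723 to 0.233 with WT IL-2 and from -0.185 to -0.156 without IL-2. Offsets for each library's trend took rho to -0.0278 and -0.0242 over all genes and to 0.347 and 0.336 over the 58. With these offsets 51 of the 58 genes were called higher and 2 (Ddx52 and Imp3) lower in either comparison, against 28.2% and 26.6% of all tested genes higher and 31.1% and 30.2% lower, and the medians were 0.57 and 0.52.

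The 29 genes of lower GC content (38.9 to 49.3%) had median log2 fold changes of 0.32 with ortho IL-2 and 0.35 with WT IL-2, where all tested genes in that range had -0.13 and -0.08. Their medians were 0.46 and 0.46 with GC offsets. Without offsets 19 and 22 of them were called higher, against 28.5% and 25.0% of all tested genes of any GC content. Among the 29 genes of higher GC content (50.2 to 59.8%) 27 were called higher in both comparisons, with medians of 0.94 and 0.92, or 0.70 and 0.78 with GC offsets, where all tested genes in that range had 0.16 and 0.10 without offsets. Of the low-GC genes, Dkc1, Nop58, Gnl3 and Wdr75, chosen after their values were seen, rose with and without offsets, at 0.90 and 0.94, 0.91 and 0.95, 0.84 and 0.87 and 0.81 and 0.88 with them. Ddx52, also of low GC content, was called lower with and without offsets.

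**Figure D5:**
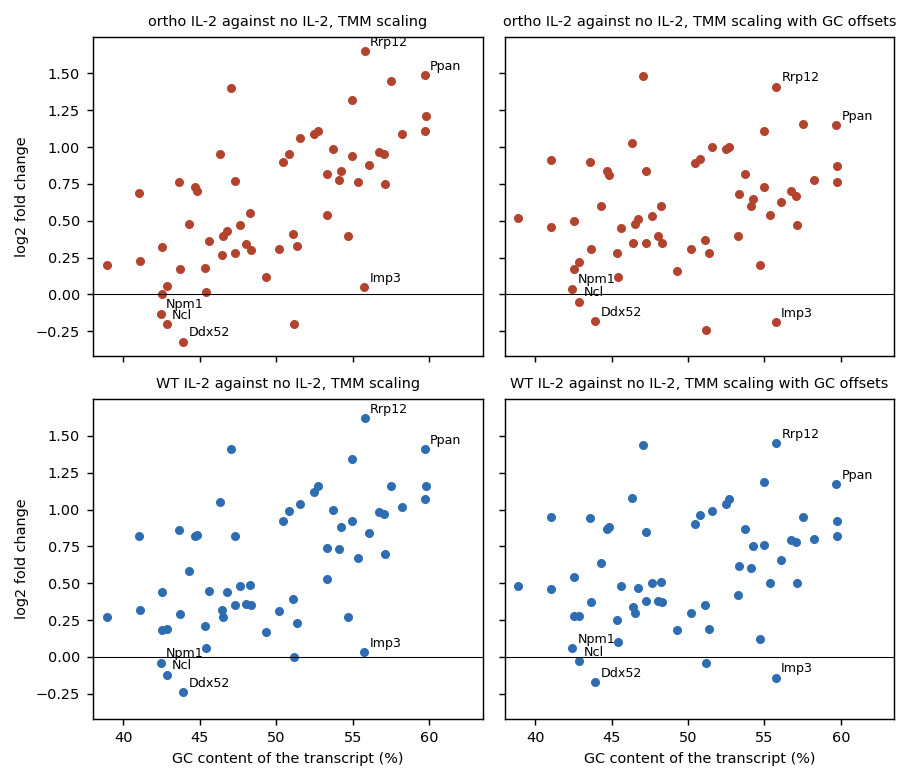
Log2 fold change of each of the 58 genes against the GC content of its transcript, for ortho IL-2 (top) and WT IL-2 (bottom), with TMM scaling (left) and with GC offsets added (right). The upward slope on the left (rho 0.655 and 0.552) is shallower on the right (0.347 and 0.336), and most points stay above 0.

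Reads of genes that overlap on opposite strands cannot be told apart here, because the use of strand in counting is not given in the sources used. Exons of 23 of the 58 genes overlap those of another annotated gene on the other strand, among them Nop56 with Idh3b, Tsr1 with Srr, Rrp9 with Parp3, Bop1 with Mroh1, Heatr1 with Lgals8, Rrp1b with Hsf2bp and Noc2l with Samd11. Of these 23, 20 were higher with ortho IL-2 and 22 with WT IL-2, against 28.5% and 25.0% of all tested genes, with median log2 fold changes of 0.76 and 0.82. Of the other 35, 26 and 27 were higher, with median log2 fold changes of 0.54 and 0.49. Nop2, Ppan, Nolc1, Nat10 and Fbl, which rose, are among the 35, although Fbl has 1 named pseudogene whose reads may be shared. So are Ddx52, which was lower, and Polr1b, Imp3, Bms1, Ddx10, Nip7, Ncl and Npm1, which were called in neither comparison. Of the 13 genes with the E-box, 12 were higher in both comparisons, with medians of 0.48 and 0.49, and of the 39 with a window but no E-box 29 were, with medians of 0.54 and 0.53.

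Other genes of the same pathway were counted from lists made for this purpose. Of 116 tested genes of 5 such lists, ortho IL-2 raised 64 and lowered 9, and WT IL-2 raised 65 and lowered 6, with median log2 fold changes of 0.22 and 0.25, against 0.62 for the 58 in both. Of all tested genes 28.5% were called higher and 27.4% lower with ortho IL-2, and 25.0% and 22.9% with WT IL-2. With the covariate for reads outside genes 25 and 36 of the 116 were higher and 2 and 2 lower, against 8.65% and 11.4% of all tested genes higher and 6.05% and 8.54% lower. Of the genes named next, Ttf1, Baz2a, Nsa2, Zfp622 and Exosc10 were then called in neither comparison and Polr1e not with ortho IL-2. Among 14 further rRNA transcription genes, 3 were higher in each comparison, 3 were lower with ortho IL-2 and 2 with WT IL-2, and the medians were -0.01 and -0.04. None of these counts exceeded the share of all tested genes (28.5% and 25.0% higher, 27.4% and 22.9% lower). Cd3eap, a subunit of RNA polymerase I, stood at 12.6, 12.7 and 11.9 with ortho, 11.4, 12.5 and 12.3 with WT and 5.63, 7.16 and 5.53 without IL-2 (log2 1.01 ± 0.10 with ortho and 0.97 ± 0.10 with WT IL-2), but overlaps Ercc1 on the other strand. Polr1e, another subunit, had log2 fold changes of 0.51 and 0.54. Ttf1, which ends transcription of rRNA genes, and Baz2a, which silences them, had -0.30 and -0.27 and -0.22 and -0.23; with the RPKM divisor neither was called lower, and the sign of Baz2a turned with ortho IL-2 (0.06).

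Of 9 other tested snoRNP genes, 8 were higher with each cytokine, against 28.5% and 25.0% of all tested genes, with medians of 0.50 and 0.48. Naf1, which assembles box H/ACA snoRNPs together with dyskerin, stood at 35.7, 34.4 and 31.9 with ortho, 34.2, 40.1 and 38.5 with WT and 8.88, 8.28 and 8.63 without IL-2 RPKM. It rose 3.95-fold with ortho and 4.37-fold with WT IL-2 (adjusted p = 2.84e-08 and 2e-08, edgeR), more than any of the 58 genes, and no exon of another gene overlaps it. Ruvbl1, an ATPase of the box C/D assembly machinery, had log2 fold changes of 0.54 and 0.58. Of 34 other small subunit genes, 14 and 15 were higher and 1 and 0 lower with ortho and WT IL-2, with medians of 0.17 and 0.16. Across all tested genes 28.5% and 25.0% were higher and 27.4% and 22.9% lower. Utp18 of the processome had 0.80 and 0.91. Bysl, a late small subunit factor, stood at 3.92, 3.85 and 3.91 with ortho, 4.61, 3.46 and 3.8 with WT and 0.876, 1.25 and 1 without IL-2 (log2 1.90 ± 0.15 with ortho and 1.93 ± 0.15 with WT IL-2), but its exons overlap those of the cyclin gene Ccnd3 on the other strand. It passed the filter through the 6 libraries given a cytokine alone, the groups where it was high, so its calls are no support for a change.

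Of 45 other large subunit genes, 31 were higher in each comparison, 4 were lower with ortho IL-2 and 3 with WT IL-2, and the median was 0.38 in both. Across all tested genes 28.5% and 25.0% were higher and 27.4% and 22.9% lower with ortho and WT IL-2. Urb2, whose yeast counterpart acts early in large subunit assembly, stood at 6.41, 6.23 and 6.43 with ortho, 6.39, 6.48 and 6.15 with WT and 2.94, 2.99 and 3.07 without IL-2 (log2 1.09 ± 0.05 with ortho and 1.08 ± 0.05 with WT IL-2). Spata5, an ATPase that recycles large subunit factors, had 1.17 and 1.32, but overlaps other genes on both strands. Tex10, which helps to remove a spacer of the precursor, fell, at 24.9, 26.2 and 25.6 with ortho, 25.7, 26 and 26.9 with WT and 33.8, 35.9 and 34.5 without IL-2 (log2 -0.44 ± 0.04 with ortho and -0.41 ± 0.04 with WT IL-2), and was not called lower with the RPKM divisor (-0.16 and -0.19). Nsa2 and Zfp622, large subunit factors, were called lower by small amounts (-0.29 and -0.21 for Nsa2, -0.13 and -0.16 for Zfp622). Nsa2 was not called with GC offsets (-0.03 and -0.05), and its WT IL-2 call was lost without WT IL-2 replicate 1 (-0.13) or 3 (-0.24) or any 1 unstimulated library (-0.20, -0.22 and -0.21). Zfp622 lost its ortho IL-2 call without ortho IL-2 replicate 1 (-0.11) or 2 (-0.12) or any 1 unstimulated library (-0.12, -0.13 and -0.14), and its WT IL-2 call without the first unstimulated library (-0.15); the RPKM divisor turned its sign (0.15 and 0.05).

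The exosome, which trims rRNA precursors from their 3′ end, had 8 of 14 genes higher and 1 lower in each comparison, with medians of 0.27. Across all tested genes 28.5% and 25.0% were higher and 27.4% and 22.9% lower with ortho and WT IL-2. The exosome nuclease gene Exosc10 had log2 fold changes of 0.36 and 0.32. Exosc8, a subunit of the exosome ring, stood at 99, 103.3 and 106 with ortho, 100.7, 102.2 and 94.3 with WT and 143.1, 143.3 and 139.3 without IL-2 and fell (log2 -0.47 ± 0.05 with ortho and -0.52 ± 0.05 with WT IL-2, adjusted p = 2.36e-05 and 1.14e-05, edgeR). With the RPKM divisor the ortho IL-2 value was -0.19 and not called, and Exosc8 overlaps Supt20 on the other strand. Myc stood at 55.2, 51.6 and 60.1 with ortho, 63.1, 54.2 and 52.2 with WT and 9.48, 10.7 and 10.8 without IL-2 RPKM. All stimulated libraries lay far above the unstimulated ones, 5.4-fold with ortho and 5.48-fold with WT IL-2 (log2 2.43 ± 0.09 with ortho and 2.45 ± 0.09 with WT IL-2; adjusted p = 3.33e-08 and 3.01e-08, edgeR). Rb1, which restrains RNA polymerase I, had -0.74 and -0.64, and overlaps other genes on the opposite strand.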

How the data were processed

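Messenger RNA was sequenced from 9 Treg libraries in 3 groups of 3. Per the file headers, the values deposited by the authors are raw read counts per RefSeq transcript and RPKM. The RPKM values equal the counts over transcript length and over a whole number that is single for each library, here called the RPKM divisor. Per the submitters' processing notes, the tools were TopHat2, Bowtie2, bedtools 2.25.0, SAMtools 0.1.8 and edgeR, on mm10. What each did, which counter was used and whether it used strand is not given in the sources used here. Total counts in genes ran from 16581624 to 58182835, and low genes carry more counting error.

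The 58 genes and the other lists were chosen with earlier results of these data known. For each of 23992 symbols the transcript with most reads was taken (31682 transcripts), and the 10702 genes that reached 1 RPKM in 3 or more libraries were tested. TMM scaling preceded the test of edgeR 4.0.16 (R 4.3.3, quasi-likelihood, group means over all 9 libraries, two-sided, Benjamini-Hochberg, threshold 0.05). SE come from the F statistic. Exact permutation tests used SciPy 1.17.1. Levels are TMM-scaled CPM per kilobase. GC offsets are one loess trend of counts on transcript GC content per library. The test was also run on simulated counts, and the outcome is not given here. Within each step the text names in full the 2 largest and 2 smallest changes, the highest and lowest level, every gene not called or lower, the 6 smallest p-values between the cytokines, and, of other lists, the 2 smallest p-values and genes lower in both; further genes were named to cover the steps. Alternatives were DESeq2 1.42.0, RLE and quantile scaling, the RPKM divisor, limma 3.58.1 on log2(RPKM + 1) and log2(RPKM + 0.1), no filter, GC offsets, a covariate for reads outside genes, a replicate block, other transcripts, only the groups compared, and leaving out each library. GENCODE M21 and RefSeq annotation of GRCm38 gave overlaps and gene starts; 10 genes of the other lists were matched under older symbols. Precursor rRNA was not analysed here.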

Additional observations from a re-analysis of the deposited data

How the results depend on the processing

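Over 22 alternatives, leaving out each library included, 30 of the 58 genes kept their call in both comparisons with no IL-2. The matching share of all tested genes is not given here, so this count describes the 58 alone. Values below give ortho IL-2 first, then WT IL-2, each against no IL-2. The count of genes called lower was 0 and 0 with the RPKM divisor, both unscaled limma fits and the covariate, and 2 and 2 with GC offsets, alone or with the replicate block; without 1 library it ran from 1 to 2 (2 without ortho IL-2 replicate 2) and stayed at 1. The median log2 fold change was 0.90 and 0.84 with the RPKM divisor, 0.50 and 0.53 with quantile scaling, 0.77 and 0.73 on log2(RPKM + 1), 0.89 and 0.82 on log2(RPKM + 0.1), 0.69 and 0.68 with no filter, and 0.57 and 0.52 with GC offsets, alone or with the replicate block. Without 1 library it ran from 0.60 to 0.67 and from 0.56 to 0.67. Between ortho and WT IL-2 the median was 0.04, 0.03 and 0.04 with the RPKM divisor, log2(RPKM + 1) and log2(RPKM + 0.1); the genes whose libraries did not overlap numbered 1 with the RPKM divisor and 5 to 26 without 1 library (8 and 9 without ortho IL-2 replicates 1 and 2, 26 without WT IL-2 replicate 1). Signs turned mostly for small values. With the covariate, however, Snhg11 turned from -1.18 and -0.96, and Polr1b turned from -0.20 with ortho IL-2, to the values given below. With the RPKM divisor, log2(RPKM + 1) and log2(RPKM + 0.1), the ortho IL-2 value was 0.08, 0.08 and 0.10 for Polr1b, 0.07 in all 3 for Ncl, 0.14 in all 3 for Npm1, 0.06 in all 3 for Baz2a, and 0.15, 0.14 and 0.14 for Zfp622; the WT IL-2 value was 0.10, 0.09 and 0.09 for Ncl, 0.17, 0.16 and 0.16 for Npm1 and 0.05 in all 3 for Zfp622. With GC offsets Imp3 was -0.19 and -0.14 (-0.18 and -0.14 with the replicate block) and Npm1 0.04 and 0.06, also with the block. With the covariate Polr1b was 0.92 with ortho IL-2, Imp3 -0.01 with WT IL-2 and Snhg11 0.38 and 0.29. Nip7 was -0.01 with quantile scaling (ortho IL-2) and Npm1 0.01 with no filter (WT IL-2). Without 1 library, ortho IL-2 values ran from -0.45 to 0.11 for Polr1b, -0.01 to 0.13 for Ddx10 and -0.04 to 0.10 for Nip7, and WT IL-2 values from -0.03 to 0.07 for Imp3 and -0.14 to 0.05 for Npm1. The cause of these changes was not tested. Replicate numbers did not pair the libraries (correlations of same-numbered deviations from -0.659 to 0.439); with the replicate block 47 and 48 genes were called higher (26.6% and 23.5% of all tested genes), 1 and 1 lower (26.2% and 21.2%) and 0 between the cytokines, with medians of 0.62, 0.62 and -0.02. Depth limits Grwd1, Nle1, Rrp9 and Rrp12, with as few as 49 to 75 reads in a library; counting error there covers a single library only.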

Other observations

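Some of the 58 genes carry snoRNAs in their own introns, which are released when the host transcript is spliced. In the GENCODE annotation 8 of the 58 (13.8%) hold snoRNA genes on the same strand, 23 snoRNAs in all, against 308 of 10638 tested genes (2.9%). The hosts are Nop56, with 5 annotated snoRNAs, Nop58 with 4, Wdr43, Gnl3 and Ncl with 3 each, Tsr1 and Ppan with 2 each and Dkc1 with 1. All but Ncl were called higher with both cytokines, with a median log2 fold change over the 8 of 0.74 with ortho IL-2 and 0.84 with WT IL-2. Of the 50 genes without snoRNAs, 39 were higher with ortho IL-2 and 42 with WT IL-2, and 1 was lower in each. Their medians were 0.51 and 0.49. Of all tested genes 28.5% and 25.0% were called higher in the same comparisons. The snoRNAs themselves were not analysed here, and their part in the reads of the hosts was not tested.

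Of 10 tested noncoding snoRNA host genes, 2 were higher and 2 lower in each comparison, near the shares of all tested genes (28.5% higher and 27.4% lower with ortho IL-2, 25.0% and 22.9% with WT IL-2), with medians of 0.04 with ortho IL-2 and -0.01 with WT IL-2. Snhg5 stood at 48, 54.5 and 54.2 with ortho, 50.7, 51.1 and 53.5 with WT and 76.3, 74.4 and 71 without IL-2 TMM-scaled RPKM, and its groups did not overlap (log2 -0.50 ± 0.06 with ortho and -0.51 ± 0.06 with WT IL-2; adjusted p = 7.38e-05 and 6.59e-05, edgeR). Gas5 stood at 52.6, 54.8 and 52.8 with ortho, 49.9, 56.1 and 52.4 with WT and 47.7, 46 and 44.9 without IL-2, a small rise (log2 0.21 and 0.19) that was not called with the covariate (adjusted p = 0.319 and 0.239, edgeR). Snhg11 passed the filter on low values through the 3 libraries without IL-2 alone, the group where it was high, so its lower call is no support for a change. It stood at 1.42, 0.799 and 0.556 with ortho, 1.01, 0.728 and 1.49 with WT and 2.17, 1.82 and 2.28 without IL-2 (log2 -1.18 and -0.96). With the covariate for reads outside genes both signs turned (0.38 and 0.29), and its WT IL-2 call was lost without WT IL-2 replicate 1 (-0.91) or 2 (-0.74) or any 1 unstimulated library (-0.93, -1.05 and -0.89).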
